A study of Mus musculus with 48 samples.

Results

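The Cyp2b genes Cyp2b9, Cyp2b10 and Cyp2b13 and the nuclear receptors Nr1i3 (CAR) and Nr1i2 (PXR) were followed in the liver of 48 male mice. These 5 genes were read by 7 of the 56605 probes of the array, as the probes that carry one of these gene names, out of 37074 gene names. 6 of the 7 probes passed the filter on dim probes, as did 33323 probes of 22029 gene names in all. The Cyp2b genes were chosen by their high values in HFD-fed Pparα hep-/- mice. Their values in every comparison that uses Pparα hep-/- mice are therefore a description with no test, and tests of the Cyp2b genes are given for WT and Pparα-/- mice only. Nr1i3 and Nr1i2 were taken as the receptors of these genes and were tested in every comparison.

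The series compared 3 genotypes on 2 diets, with 8 mice and 1 array per mouse in each of the 6 groups. WT mice were C57BL/6J animals bought from a supplier. Pparα-/- mice, on the same background, lack Pparα in every cell, and Pparα hep-/- mice carry floxed Pparα and an albumin-Cre transgene, which deletes it in hepatocytes and leaves it in the other cells of the liver. Both deletion lines were bred in house, so the genotype cannot be told apart from the origin of the mice. Each genotype received a control diet (CTRL) or a high-fat diet with 60% fat (HFD), and all mice were 20 weeks old and housed at thermoneutrality. The labels give 12 weeks of diet, and the written methods give a shorter time. The question was how the genes of the Cyp2b subfamily and their receptors responded to the HFD, and whether the response differed with the loss of Pparα.

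Cytochromes P450 of the 2B subfamily are haem enzymes of the endoplasmic reticulum of hepatocytes that oxidise drugs, steroids and fatty acids. CAR and PXR are nuclear receptors that pair with RXR, bind direct or everted repeats of a hexamer close to AGGTCA and switch on genes of drug metabolism, conjugation and transport. Cyp2b10 is the classical mouse gene induced through CAR by phenobarbital-like compounds. Cyp2b9 and Cyp2b13 are known in mice as female-predominant genes that are kept low in adult males by the male pattern of growth hormone.

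The probe sequences are shown because Cyp2b paralogues are close to each other, and a signal counts for a gene only as far as its probe separates them. Each probe is 60 bases long. The end of the Cyp2b10 probe (mm9, chr7:26711522-26711581, plus strand) and the start of the Cyp2b9 probe (mm9, chr7:26995607-26995666, plus strand) share a run of 10 bases, printed in capitals. The longest run shared by any other pair of Cyp2b probes was 5 to 7 bases. The probes lie at different transcript positions, 1804 for Cyp2b9, 1756 and 1094 for Cyp2b10 and 1565 for Cyp2b13. Runs shared between probes therefore cannot show whether a probe separates the genes.
Cyp2b10, last 30 bases: gtgctaatggactctgtaTAAGGTCTGAat
Cyp2b9, first 30 bases: TAAGGTCTGAtttctatgtctacagacttg
The files attach RefSeq transcripts of both Cyp2b9 and Cyp2b10 to the Cyp2b9 probe, so how much of that signal came from each of these genes was not tested. The Cyp2b13 probe lies at chr7:26880905-26880964, between them. A second Cyp2b10 probe, at chr7:26702056-26702115, was left out by the filter. It was well above background on 1 WT HFD array and 1 Pparα hep-/- CTRL array and had group medians of 4.91 to 5.03 on the log2 scale, at the level of background, while the tested Cyp2b10 probe reached 14.39. Its sequence is given because its readout differed from that of the tested probe.
Cyp2b10, second probe: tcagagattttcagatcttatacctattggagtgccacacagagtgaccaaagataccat

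The stretches before the gene starts show how alike the Cyp2b genes are outside their transcripts. They are taken from the RefSeq windows of GRCm38.p6, which hold 250 bases before and 50 bases after a transcript start of each gene, and all 5 genes had a window. The gene starts in the RefSeq gene table lie 59 (Cyp2b9) and 107 bases (Cyp2b13) upstream of these transcript starts, and at the same base for Cyp2b10. The first 143 bases of each window are printed on the plus strand, with AGGTCA in capitals.
Cyp2b9, chr7:26173159-26173301: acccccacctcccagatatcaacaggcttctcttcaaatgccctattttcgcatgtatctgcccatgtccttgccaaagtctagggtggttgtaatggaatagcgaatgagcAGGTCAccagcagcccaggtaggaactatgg
Cyp2b13, chr7:26061245-26061387: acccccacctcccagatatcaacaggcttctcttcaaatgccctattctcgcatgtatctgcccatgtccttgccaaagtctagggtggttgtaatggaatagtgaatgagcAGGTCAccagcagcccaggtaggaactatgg
Cyp2b10, chr7:25897408-25897550: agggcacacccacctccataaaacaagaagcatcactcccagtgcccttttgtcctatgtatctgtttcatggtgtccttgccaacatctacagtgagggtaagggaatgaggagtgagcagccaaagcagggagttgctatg
The windows of Cyp2b9 and Cyp2b13 were the same at 298 of 300 bases. From Cyp2b9 to Cyp2b13 they differed by T48C and C104T, counted from the first base printed. Each aligned to the Cyp2b10 window with 73.2% identity (230 of 314 aligned positions). AGGTCA, the half-site of nuclear receptors, began at base 113 of the windows of Cyp2b9 and Cyp2b13, which was position -138 from the transcript start of the window and 79 and 31 bases before the start in the gene table. It was in neither strand of the windows of Cyp2b10, Nr1i3 and Nr1i2, against 16.3% of 32851 promoter windows with it on either strand. The windows of Cyp2b19 and Cyp2b23, other genes of the subfamily, also held it, at positions -121 and -164. AGTTCA, a variant half-site held by 14% of windows, and TTCNNNGAA, the palindrome bound by STAT5, held by 8.3%, were in none of the 5 windows. Sites outside these windows, such as those farther upstream, were not searched.

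Signal over background limits what an array can show, and the number of mice limits the precision. The median intensity of an array was 56 to 91 against a local background of 20 to 36, 28234 to 38217 spots per array were well above background, and 0 spots were saturated. The arrays were washed in 2 batches, and each group had 3 to 5 arrays in each batch. The weights that limma gave to the arrays ran from 0.190 to 2.52, where a low weight marks an array whose values lie far from those of its group. The 5 arrays under 0.5 were 2 of WT HFD mice and 1 each of WT CTRL, Pparα hep-/- CTRL and Pparα-/- CTRL mice, and results are also given without them, a choice made after seeing the data. Pparα itself was read by 2 probes, whose place relative to the deleted part of the gene was not checked. Their log2 differences between Pparα-/- and WT mice were -0.65 and -1.11 on the CTRL diet and -1.08 and -1.29 on the HFD, and between Pparα hep-/- and WT mice -0.42 and -0.10 on the CTRL diet and -0.85 and -0.68 on the HFD. The summed linear signal of 10 hepatocyte markers was 2106545 to 2338954 over the 48 mice.

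By their tested probes, Cyp2b9 and Cyp2b10 rose in response to the HFD in WT mice and did not pass the test in Pparα-/- mice. The Pparα hep-/- mice had the highest group medians of both. 3 of the 5 genes were called higher in WT mice on the HFD, namely Cyp2b9, Cyp2b10 and Nr1i3, and 0 were called lower. Over all tested probes 8.58% were called higher and 10.1% lower in that comparison. For Pparα-/- mice limma called 0 of the 5 genes (1, Nr1i2, at an unadjusted p under 0.05), with 12.2% of all tested probes called higher and 12.5% called lower.

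For Cyp2b9, the log2 signal in WT CTRL mice had a lowest value of 5.02, a median of 6.0 and a highest value of 8.50, and 4 of 8 arrays were well above background. In WT HFD mice the lowest value was 4.84, the median 10.46 and the highest 14.80, with 6 of 8 arrays well above background. These 6 HFD mice lay above every CTRL mouse, whereas the other 2 lay at the level of background, so the groups overlapped. The fitted change was 4.76 (SE 0.70, 95% interval 3.35 to 6.17), a 27.1-fold increase (limma, adjusted p = 5.11e-06). The change was 4.20 in the first and 3.67 in the second wash batch as a difference of means, and without the arrays of low weight it was 4.93. It was 3.94 without array weights (adjusted p = 0.00134), 4.17 without WT HFD replicate 3 and 6.18 with the processed signal of the scanner software. The HFD mice spread much more widely than the CTRL mice, and a two-sided exact permutation test of the means over 12870 splits, which does not pool the spread with other groups, gave p = 0.0123 for a difference of 3.94.

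In Pparα hep-/- mice on the CTRL diet, Cyp2b9 ran from 5.28 over a median of 7.05 to 9.32, with 6 of 8 arrays well above background. On the HFD it ran from 10.96 over a median of 12.46 to 13.20, with 8 of 8 arrays well above background. The HFD mice lay close together and the groups did not overlap, a separation that 0.219% of all tested probes showed in this direction and by which the gene was chosen. The fitted difference was 5.43, or 43.0-fold, with 4.45 and 5.72 in the wash batches. The Pparα hep-/- HFD mice all lay within the range of the WT HFD mice, since 2 WT mice reached 13.95 and 14.80.

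In Pparα-/- mice, Cyp2b9 ran from 4.98 over 5.88 to 6.93 on the CTRL diet and from 4.91 over 5.25 to 5.60 on the HFD, with 3 and 1 arrays well above background. The HFD group was the lowest of the 6 groups by its median, and its change from CTRL was -0.65 (SE 0.62, 95% interval -1.91 to 0.60, adjusted p = 0.476). Both groups were near background, where an array cannot resolve a decrease. Cyp2b9 did not differ detectably between Pparα-/- and WT mice on the CTRL diet (0.01, 95% interval -1.42 to 1.44, adjusted p = 0.993). On the HFD it was lower in Pparα-/- than in WT mice by a log2 difference of -5.40 (SE 0.61, adjusted p = 7.06e-10, exact permutation test of the means p = 0.00559). With 1 of 8 Pparα-/- HFD arrays well above background, the fold is given as a bound, against the lowest signal among probes well above background on each array or the probe's own where that was higher, and WT HFD mice were at least 24.9-fold higher. This bound was 15.7-fold without WT HFD replicate 6, the highest mouse, and rose to at most 42.1-fold without replicate 1 or 2. The response of Pparα-/- mice to the HFD was below that of WT mice by -5.41 (SE 0.94, 95% interval -7.30 to -3.53, adjusted p = 0.000146), and the fit within the second wash batch alone gave -4.66 (adjusted p = 0.0533). Set against the Pparα hep-/- HFD mice as a description, all 8 Pparα-/- HFD mice were lower, and the Pparα hep-/- mice were at least 107-fold higher.

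**Figure D1:**
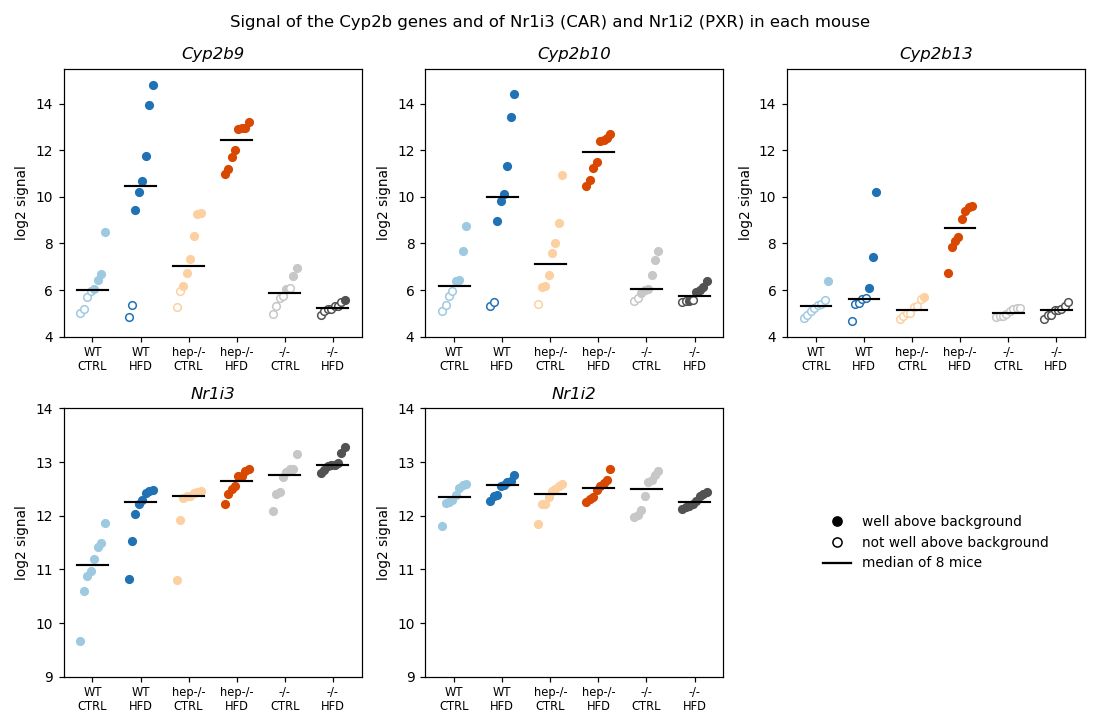
Log2 signal of Cyp2b9, Cyp2b10, Cyp2b13, Nr1i3 and Nr1i2 in each of the 48 mice, by genotype and diet, with the median of 8 mice as a line and open circles where the array was not well above background. 6 of 8 WT HFD mice and all Pparα hep-/- HFD mice are raised for Cyp2b9, the Pparα-/- mice stay near the floor, and the receptor panels have a narrower scale.

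The tested probe of Cyp2b10, the marker gene of CAR activation, followed the pattern of Cyp2b9 at smaller differences. The second Cyp2b10 probe did not, with medians of 4.91 in WT CTRL, 5.03 in WT HFD and 5.01 in Pparα hep-/- HFD mice. How much of the signal of the tested probe came from other Cyp2b genes was not tested. In WT CTRL mice the log2 signal of the tested probe ran from 5.12 over 6.17 to 8.73, with 4 arrays well above background, and in WT HFD mice from 5.33 over 9.98 to 14.39, with 6. Again 6 of 8 HFD mice lay above the highest CTRL mouse. The other 2, replicates 1 and 2, were the same mice as for Cyp2b9 (5.35 and 4.84) and had 5.49 and 5.33 in Cyp2b10. They also had the lowest Nr1i3 of their group, at 11.52 and 10.81, and array weights of 0.540 and 0.345. Without replicate 1 or 2 the change of Cyp2b9 was 5.22 or 5.08, that of Cyp2b10 4.58 or 4.44 and that of Nr1i3 1.10 or 1.11. The change was 4.17 (SE 0.68, 95% interval 2.81 to 5.53), or 17.97-fold (adjusted p = 2.25e-05), with 3.81 and 3.06 in the wash batches and 4.30 without the arrays of low weight. It was 3.44 without array weights (adjusted p = 0.00389) and 5.47 with the processed signal. The exact permutation test of the means gave p = 0.0159.

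Pparα hep-/- mice had Cyp2b10 values from 5.40 over 7.13 to 10.95 on the CTRL diet, with 7 arrays well above background, and from 10.45 over 11.93 to 12.68 on the HFD, with 8. 6 of 8 HFD mice lay above the highest CTRL mouse, so the groups overlapped. The CTRL mouse at 10.95 was replicate 1, whose array had the lowest weight of all, 0.190. The fitted difference was 4.92 (30.2-fold). It was 5.02 without the arrays of low weight and 4.23 without array weights, and as a difference of means it was 4.26, with 3.28 and 5.36 in the wash batches. The Pparα-/- mice had values that ran from 5.53 over 6.04 to 7.67 on the CTRL diet and from 5.51 over 5.75 to 6.41 on the HFD, with 6 and 5 arrays well above background and a change of -0.45 (SE 0.60, adjusted p = 0.630). Pparα-/- mice were at 0.18 against WT mice on the CTRL diet (adjusted p = 0.869). They were lower on the HFD by a log2 difference of -4.43 (SE 0.59, 21.6-fold, adjusted p = 3.21e-08, exact permutation p = 0.00699). The difference in response between Pparα-/- and WT mice was -4.62 (SE 0.90, adjusted p = 0.000532), and -4.00 within the second wash batch alone (adjusted p = 0.0733).

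Cyp2b13 was near background in most WT mice. Its probe passed the filter on dim probes through the Pparα hep-/- HFD group alone. In WT CTRL mice its log2 signal ran from 4.80 over 5.30 to 6.38 and in WT HFD mice from 4.70 over 5.63 to 10.22, with 1 and 3 arrays well above background. The highest 2 WT HFD mice lay above every CTRL mouse and the others did not. The change in WT mice was 0.71 (SE 0.38, 95% interval -0.05 to 1.48, adjusted p = 0.202). Pparα hep-/- mice had values from 4.76 over 5.15 to 5.71 on the CTRL diet, with 1 array well above background, and from 6.73 over 8.68 to 9.62 on the HFD, with 8. The HFD mice did not overlap the CTRL mice, as for 0.219% of all tested probes in this direction, a separation by which the gene was chosen. Against the same bound as above the HFD mice were at least 8.36-fold higher. The fitted log2 difference depended on the treatment of the background, being 3.67 with the median signal, 6.07 with the processed signal of the scanner software and 2.90 after normexp correction.

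In Pparα-/- mice 0 of 16 arrays were well above background for Cyp2b13, with medians of 5.04 on the CTRL diet and 5.15 on the HFD. Folds against these mice are therefore bounds too. Cyp2b13 was at least 8.69-fold higher in Pparα hep-/- HFD mice and at least 1.82-fold higher in WT HFD mice than in Pparα-/- HFD mice. The bound for WT HFD mice was 1.24-fold without replicate 6 and 2.14-fold without replicate 1. The fit called the difference between Pparα-/- and WT mice on the HFD (adjusted p = 0.0190, exact permutation p = 0.0169), with 3 of 8 WT HFD arrays well above background. This call was lost without WT HFD replicate 3 (adjusted p = 0.0787) and within each wash batch (adjusted p = 0.117 and 0.0907). The difference in response between Pparα-/- and WT mice did not pass the test (adjusted p = 0.420).

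**Figure D2:**
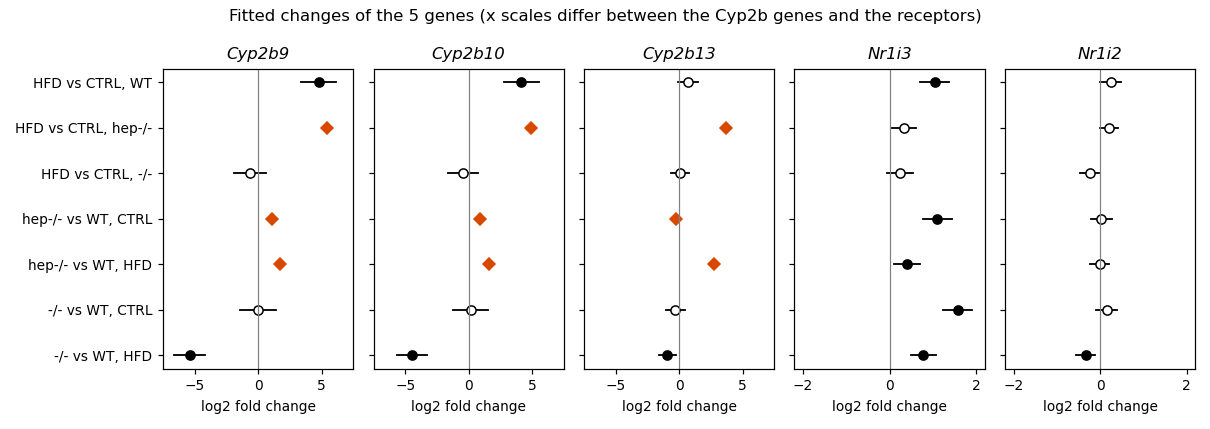
Fitted log2 fold changes of the 5 genes in 7 comparisons, with 95% intervals for tested values, filled circles where the adjusted p was at most 0.05, open circles where it was not, and orange diamonds for descriptions without a test. Cyp2b9 and Cyp2b10 lie at 4.76 and 4.17 for the HFD in WT mice and at -5.40 and -4.43 for Pparα-/- against WT mice on the HFD, and Nr1i3 is to the right of 0 throughout.

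By their medians, Cyp2b9 and Cyp2b10 had the same order over the 6 groups: Pparα hep-/- HFD, WT HFD, Pparα hep-/- CTRL, WT CTRL, Pparα-/- CTRL and Pparα-/- HFD. Each group overlapped its neighbour in that order for both genes. In WT CTRL, Pparα-/- CTRL and Pparα-/- HFD mice 4, 3 and 1 of 8 arrays were well above background for Cyp2b9. For Cyp2b10 these were 4, 6 and 5. With values so near background, the order among these groups was not resolved. Pparα hep-/- mice on the CTRL diet were at 1.08 (Cyp2b9) and 0.89 (Cyp2b10) against WT mice, and 2 of 8 lay above the highest WT mouse for each gene. On the HFD the differences from WT mice were 1.75 and 1.64, and 2.73 for Cyp2b13, with overlapping mice for all of the 3 genes. For Cyp2b13, 3 of 8 WT HFD arrays were well above background, so the size of its difference was not resolved.

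Within groups, the same mice were high in Cyp2b9 and Cyp2b10. After removal of group and wash batch means, Pearson's r over 48 mice was 0.968 and Spearman's rho 0.936. These correlations include the Pparα hep-/- mice and are descriptions with no test. Without the 2 mice farthest from the median of Cyp2b9, r was 0.953. The possible cross-reading of the Cyp2b9 probe, described with its sequence, and that of the tested Cyp2b10 probe bear on this value and were not tested. For Cyp2b13, r was 0.688 with Cyp2b9 and 0.691 with Cyp2b10, with rho of 0.611 and 0.634. The 2 WT HFD mice with the highest Cyp2b9 were also the highest in Cyp2b10 and Cyp2b13.

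For Nr1i3, r from mouse to mouse was nearer to 0. It was 0.160 with Cyp2b9 (rho 0.02) and 0.020 with Cyp2b10 (rho -0.07). Without the 2 farthest mice these were -0.19 and -0.21. Nr1i2 had r of 0.258 with Cyp2b9 and 0.237 with Cyp2b10.

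**Figure D3:**
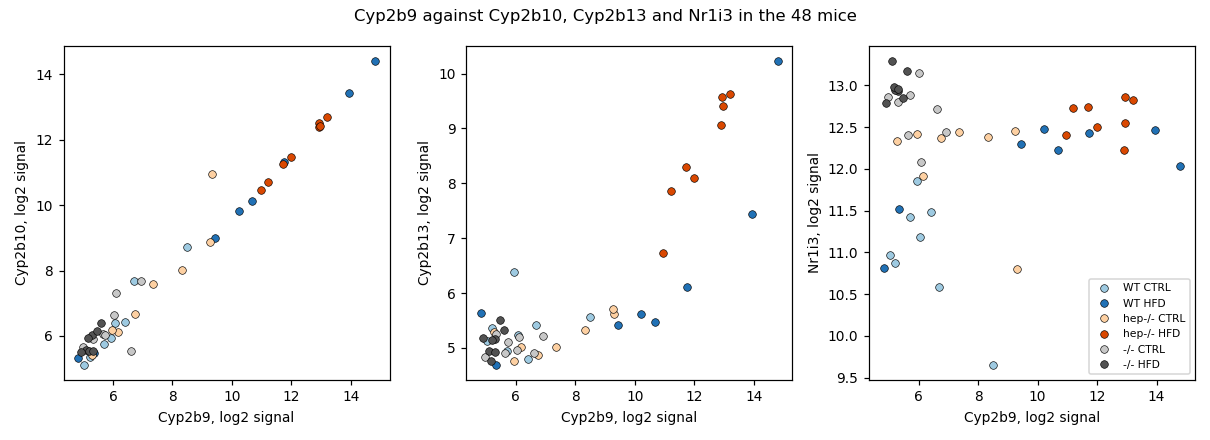
Log2 signal of Cyp2b10, Cyp2b13 and Nr1i3 against that of Cyp2b9 in the 48 mice, coloured by group. Cyp2b10 runs along Cyp2b9 over the whole range (r of 0.968 within groups), Cyp2b13 leaves the floor where Cyp2b9 is high, and Nr1i3 shows no such line (r of 0.160).

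The probes most like Cyp2b9 over the 48 arrays, apart from Cyp2b genes, were those of Slc25a10, the mitochondrial dicarboxylate carrier (r of 0.838, and 0.668 within groups), and Pex11a, a peroxisome division factor (0.833 and 0.734). The next were 4930525G20Rik (0.822), Xrcc3 (0.819) and E330011O21Rik (0.819). For Cyp2b10 they were 4930525G20Rik (0.813), Pex11a (0.812), Acaa1b (0.805), Slc25a10 (0.804) and Acaa1a (0.803), where the Acaa1 genes encode peroxisomal thiolases. Pex11a had group medians of 14.38 and 15.70 in WT CTRL and HFD mice, 14.37 and 15.21 in Pparα hep-/- mice, and 13.66 and 14.23 in Pparα-/- mice. Cyp2b13 was less like any named gene outside the members, led by Galk1, the galactokinase (0.717), and S100g, a calcium-binding protein (0.712). These are descriptions over arrays that share groups and wash batches.

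The receptor CAR followed another order over the groups than Cyp2b9 and Cyp2b10. Nr1i3 was highest in Pparα-/- mice and lowest in WT CTRL mice, and it rose in response to the HFD in WT mice. Its probe (mm9, chr1:173147776-173147835, plus strand) was well above background on all arrays. In WT CTRL mice the log2 signal ran from 9.66 over 11.08 to 11.86 and in WT HFD mice from 10.81 over 12.26 to 12.48, and 6 of 8 HFD mice lay above the highest CTRL mouse. The change was 1.04 (SE 0.17, 95% interval 0.71 to 1.38), or 2.06-fold (adjusted p = 1.96e-05), with 1.27 and 0.79 in the wash batches as differences of means. In the fit within the second wash batch alone the adjusted p was 0.0547.

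In Pparα hep-/- mice Nr1i3 ran from 10.80 over 12.37 to 12.46 on the CTRL diet and from 12.23 over 12.64 to 12.86 on the HFD. The lowest CTRL mouse was replicate 1, whose array had the lowest weight and which was also the highest CTRL mouse of its genotype in Cyp2b9 and Cyp2b10. The change of 0.34 (SE 0.14, 95% interval 0.05 to 0.62) did not pass (adjusted p = 0.0846), and it passed without Pparα hep-/- HFD replicate 5 (0.43, adjusted p = 0.0375). limma called 0 of the 2 receptor genes in this comparison (both at an unadjusted p under 0.05), against 9.42% of all tested probes called higher and 10.7% called lower. The Pparα-/- mice had Nr1i3 values from 12.08 over 12.76 to 13.15 on the CTRL diet and from 12.80 over 12.95 to 13.29 on the HFD, a change of 0.25 (SE 0.15, adjusted p = 0.220).

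Loss of Pparα went with more Nr1i3 on the CTRL diet. Pparα hep-/- CTRL mice were 2.15-fold above WT CTRL mice (log2 1.11, SE 0.16, adjusted p = 1.67e-06), with 7 of 8 mice above the highest WT mouse, and Nr1i3 was the 1 receptor called higher, as were 11.3% of all tested probes. Pparα-/- CTRL mice were 2.97-fold above WT CTRL mice (log2 1.57, SE 0.17, adjusted p = 2.98e-10). These groups did not overlap, which held for 2.93% of all tested probes in this direction. Nr1i3 was the only one of the 5 genes called between Pparα-/- and WT mice on the CTRL diet, against 15.6% of probes called higher and 18.6% called lower.

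On the HFD, Nr1i3 was 1.72-fold higher in Pparα-/- than in WT mice (log2 0.78, SE 0.15, adjusted p = 2.08e-05), again without overlap, as for 3.01% of probes. 1 of the 5 genes was thus called higher and the other 4 lower in this comparison, against 21.8% and 23.9% of all tested probes. The 4 include Cyp2b13, whose probe was well above background on 3 of 8 WT HFD and 0 of 8 Pparα-/- HFD arrays. Its call was lost without WT HFD replicate 3. For Nr1i3, the difference of Pparα hep-/- from WT mice on the HFD was 0.40 (SE 0.15, adjusted p = 0.0378), where 13.2% of probes were called higher. It lost its call without the arrays of low weight (0.31, adjusted p = 0.0531) and without array weights (adjusted p = 0.061). Pparα-/- mice were above Pparα hep-/- mice by 0.47 on the CTRL diet (SE 0.15, adjusted p = 0.0195) and by 0.38 on the HFD (SE 0.14, adjusted p = 0.0299), with 12.2% and 15.2% of probes called higher. Both of these calls were lost without array weights (adjusted p = 0.0564 and 0.304).

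The response of Nr1i3 to the HFD was smaller in both deletion lines than in WT mice. The difference was -0.71 for Pparα hep-/- mice (SE 0.22, adjusted p = 0.0320), where 5.79% of all tested probes were called lower. The probes called there in either direction numbered 3463, 2222 without WT CTRL replicate 3, 2106 without WT HFD replicate 7 and 298 without array weights. The difference was -0.79 for Pparα-/- mice (SE 0.22, adjusted p = 0.0139). In that comparison 4 of the 5 genes, all but Cyp2b13, were called lower, against 7.41% of probes. Neither difference in the response of Nr1i3 was called without array weights (adjusted p = 0.511 and 0.158) or within either wash batch. The responses of both deletion lines did not differ detectably from each other (-0.09, 95% interval -0.50 to 0.33, adjusted p = 0.889), a comparison in which limma called 0 of the 2 receptor genes (1 at an unadjusted p under 0.05) and 3.41% of probes. These were 1135 probes, which fell to 557 without Pparα hep-/- HFD replicate 6 and to 717 to 746 without any 1 of 4 other mice, Pparα hep-/- CTRL replicate 8, Pparα-/- CTRL replicate 6 and Pparα-/- HFD replicates 7 and 8.

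A second Nr1i3 probe gave the same calls in 10 of the 12 comparisons. Its 60 bases span 229 bases of the genome (mm9, chr1:173144301-173144529), so it crosses a splice junction. It rose by 1.22 in WT mice on the HFD (adjusted p = 5.47e-06) and was higher in Pparα hep-/- CTRL (1.22, adjusted p = 1.06e-06) and Pparα-/- CTRL mice (1.68, adjusted p = 3.49e-10) than in WT mice. The calls it did not share were those on the HFD for Pparα hep-/- against WT mice (0.32, adjusted p = 0.138) and for Pparα-/- against Pparα hep-/- mice (0.21, adjusted p = 0.309). The difference between the signals of both probes had an SD of 0.163 over the 48 mice.

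The probes most like Nr1i3 over the 48 arrays were Dsg1c, a desmoglein (r of 0.911, and 0.872 within groups), Auh and Mcee, enzymes of leucine and of propionyl-CoA breakdown (0.903 and 0.894), Pon1, the serum paraoxonase (0.893), and Fggy (0.892). Dsg1c had medians of 10.03 and 10.69 in WT CTRL and HFD mice and 10.96 and 11.48 in Pparα-/- mice.

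PXR varied within a narrow range. Nr1i2 (mm9, chr16:38248745-38248804, minus strand) was well above background on all arrays, and its 6 group medians lay between 12.25 and 12.57, in the order WT HFD, Pparα hep-/- HFD, Pparα-/- CTRL, Pparα hep-/- CTRL, WT CTRL and Pparα-/- HFD, with every group overlapping its neighbour. Its range was 11.81 to 12.58 in WT CTRL, 12.28 to 12.76 in WT HFD, 11.84 to 12.59 in Pparα hep-/- CTRL, 12.26 to 12.88 in Pparα hep-/- HFD, 11.99 to 12.83 in Pparα-/- CTRL and 12.12 to 12.45 in Pparα-/- HFD mice. The HFD change was 0.25 in WT (SE 0.12, adjusted p = 0.162), 0.22 in Pparα hep-/- (SE 0.10, adjusted p = 0.137) and -0.23 in Pparα-/- mice (SE 0.11, adjusted p = 0.112), none of which passed.

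On the HFD, Nr1i2 was lower in Pparα-/- mice than in WT mice (-0.33, SE 0.11, adjusted p = 0.0102) and than in Pparα hep-/- mice (-0.32, SE 0.10, adjusted p = 0.0112). All 8 Pparα-/- HFD mice lay below the mean of either group and 4 lay below its lowest mouse, and 15.4% of probes were called lower against Pparα hep-/- mice. As a description, the 3 Cyp2b genes had no overlap between Pparα-/- and Pparα hep-/- HFD mice, as for 3.43% of probes in this direction. These genes were chosen by their high values in Pparα hep-/- HFD mice. The HFD response of Nr1i2 was lower in Pparα-/- than in WT mice (-0.48, SE 0.16, adjusted p = 0.0410). Without array weights these 3 differences did not pass (adjusted p = 0.0973, 0.149 and 0.217). The second also lost its call without Pparα hep-/- HFD replicate 6 (-0.21, adjusted p = 0.139), and the third without any 1 of 14 mice, WT CTRL replicate 3 among them (-0.40, adjusted p = 0.101). On the CTRL diet Nr1i2 did not differ detectably between Pparα hep-/- and WT (0.03, 95% interval -0.21 to 0.27), Pparα-/- and WT (0.15, -0.10 to 0.40) or Pparα-/- and Pparα hep-/- mice (0.12, -0.10 to 0.35). The probes most like Nr1i2 were weakly so, led by Trp53inp2 (r of 0.616) and Gm12279 (0.599).

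Of 29 listed partners and regulators of CAR and PXR, 3 rose and 6 fell in WT mice on the HFD, with a median of -0.09 against -0.01 over all tested probes, of which 8.58% rose and 10.1% fell. Rxrg, a partner of CAR and PXR, rose by 1.11 (adjusted p = 2.25e-05) and Nr1h4, the bile acid receptor FXR, by 0.32 (adjusted p = 0.0373). Egfr, whose signal holds CAR in the cytoplasm, fell by 1.11 (adjusted p = 0.0117), Foxa1, a pioneer factor of hepatocytes, by 0.64 and the chaperone gene Hsp90aa1 by 0.55. The HFD raised 3 and lowered 3 of them in Pparα hep-/- mice (9.42% and 10.7% of all probes), among them Fgf21, a fasting hormone and target gene of PPARα, at 1.25 (adjusted p = 0.0116), Egfr at -1.01 and Nr0b2, the corepressor SHP, at -0.65. Of the same 29 genes 3 rose and 0 fell in Pparα-/- mice (12.2% and 12.5% of all probes), led by Fgf21 at 2.53 (adjusted p = 6.41e-06).

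Between genotypes on the CTRL diet, 3 of these 29 genes were higher and 12 lower in Pparα hep-/- than in WT mice, and 5 were higher and 11 lower in Pparα-/- mice. Fgf21 was lower by -2.85 and -3.57 and Foxa1 by -1.10 and -1.19, while Rxrg was higher by 1.17 and 0.80 and Nr0b2 by 0.68 and 0.81. Over all probes 11.3% were called higher and 13.5% lower in Pparα hep-/- and 15.6% and 18.6% in Pparα-/- against WT mice on the CTRL diet. These comparisons share the WT CTRL mice. On the HFD the counts were 2 higher and 2 lower for Pparα hep-/- and 5 higher and 5 lower for Pparα-/- mice, against 13.2% and 13.4% and against 21.8% and 23.9% of all probes.

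The listed target genes of CAR and PXR other than Cyp2b, 53 measured of 59, had medians near 0 for the HFD in each genotype. In WT mice 11 rose and 2 fell, with a median of 0.02, and 7 rose without WT HFD replicate 7. Over all probes 8.58% rose and 10.1% fell. Abcc3, an export pump for conjugates, rose by 1.41 (SE 0.25, adjusted p = 7.49e-05), Aldh1a1 by 1.30 (SE 0.13, adjusted p = 5.83e-09) and Aldh1a7 by 0.99 (SE 0.14, adjusted p = 1.97e-06), the Aldh1a genes encoding cytosolic aldehyde dehydrogenases. Akr1b7 fell by 0.73 and Ugt2b35 by 0.36. In Pparα hep-/- mice 12 rose and 8 fell, with a median of 0.01, against 9.42% and 10.7% of all probes. Gsta2, a glutathione transferase, rose by 1.82, Gadd45b by 0.92 and Ephx1, the microsomal epoxide hydrolase, by 0.81. Cyp2c38 fell by 1.92, Gstt3 by 0.93 and Cyp2c29 by 0.76. In Pparα-/- mice 13 rose and 5 fell, with a median of -0.01, against 12.2% and 12.5% of all probes. There Gsta2 rose by 1.27, Slco1a4, an uptake carrier, by 1.23 and Abcb1a, an export pump, by 1.18, and the carboxylesterase genes Ces2a and Ces2b fell by 1.07 and 0.92. Without array weights only 3, 1 and 4 of these genes were called higher in WT, Pparα hep-/- and Pparα-/- mice. Over all alternatives the genes called lower numbered 1 to 3 in WT, 2 to 13 in Pparα hep-/- and 1 to 7 in Pparα-/- mice.

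**Figure D4:**
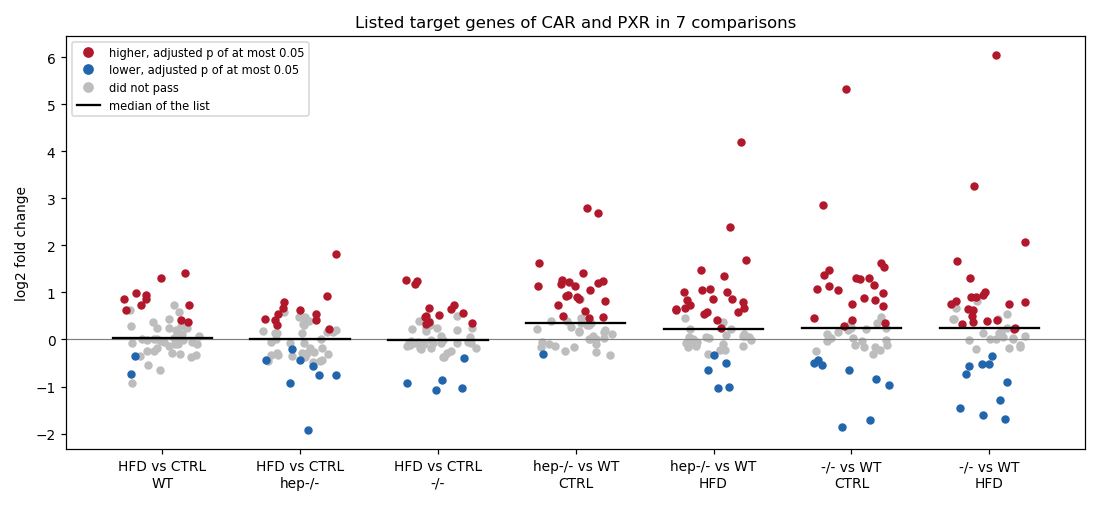
Log2 fold changes of 53 listed CAR and PXR target genes, Cyp2b genes left out, in 7 comparisons. Each point is a gene, red where called higher, blue where called lower and grey where it did not pass, and the black line is the median of the list, which is 0.02 for the HFD in WT mice and 0.36 for Pparα hep-/- against WT mice on the CTRL diet.

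Between genotypes these target genes were counted in the same way. In Pparα hep-/- against WT mice 22 were higher and 1 lower on the CTRL diet (median 0.36 against -0.01 over all tested probes, the count of lower genes running from 0 to 3 with any 1 of 11 mice left out) and 23 higher and 5 lower on the HFD (median 0.21). Over all probes 11.3% were higher and 13.5% lower on the CTRL diet, and 13.2% and 13.4% on the HFD. Against WT mice, 22 were higher and 8 lower in Pparα-/- mice on the CTRL diet (median 0.25) and 22 higher and 10 lower on the HFD (median 0.24), against 15.6% and 18.6% of all probes on the CTRL diet and 21.8% and 23.9% on the HFD. Sult1e1, the oestrogen sulfotransferase, differed most, by 2.80 and 4.19 in Pparα hep-/- mice and by 5.32 and 6.05 in Pparα-/- mice on the CTRL diet and the HFD. Cyp2c39 was higher in Pparα-/- mice by 2.85 and 3.26. Cyp3a11, the classical target gene of PXR, was lower in Pparα-/- than in WT mice by -1.86 (SE 0.49, adjusted p = 0.0026) on the CTRL diet and by -1.69 (SE 0.42, adjusted p = 0.00103) on the HFD, and Cyp3a41a by -1.72 and -1.45. Between the deletion lines, 5 were higher and 13 lower in Pparα-/- than in Pparα hep-/- mice on the CTRL diet, against 12.2% and 12.9% of all probes, and 11 were higher and 14 lower on the HFD, against 15.2% and 15.4%.

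The neighbours of the Cyp2b genes were counted to see whether the HFD changed the whole cluster. Of 10 listed genes of the Cyp2 cluster on chromosome 7, 8 were tested, and limma called 0 of these in WT mice on the HFD (1 at an unadjusted p under 0.05). With 8.58% of all probes called higher and 10.1% lower, so small a list does not set the cluster apart from other probes. In Pparα hep-/- mice 1 rose and 1 fell (9.42% and 10.7% of all probes), and in Pparα-/- mice 0 rose and 2 fell (12.2% and 12.5%). Cyp2a12 in Pparα hep-/- mice rose by 0.21 (adjusted p = 0.0133) and Cyp2g1 fell by 1.65 (adjusted p = 2.03e-06). Cyp2g1 fell by 0.99 and Cyp2f2, a lung and liver P450, by 0.60 in Pparα-/- mice. Between genotypes on the CTRL diet 5 of the 8 were higher in each deletion line than in WT mice and 0 lower: Cyp2g1 by 1.78 in the hepatocyte-specific and 2.06 in the whole-body deletion, and Cyp2a4, a steroid hydroxylase, by 0.94 and 1.54. The shares called higher and lower among all probes were 11.3% and 13.5% for Pparα hep-/- and 15.6% and 18.6% for Pparα-/- mice. The Cyp2a genes are close paralogues, so their signals may include each other. The other Cyp2b genes of the cluster, Cyp2b19 with 3 probes and Cyp2b23 with 1, were well above background on at most 1 array of any group and were not tested.

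**Figure D5:**
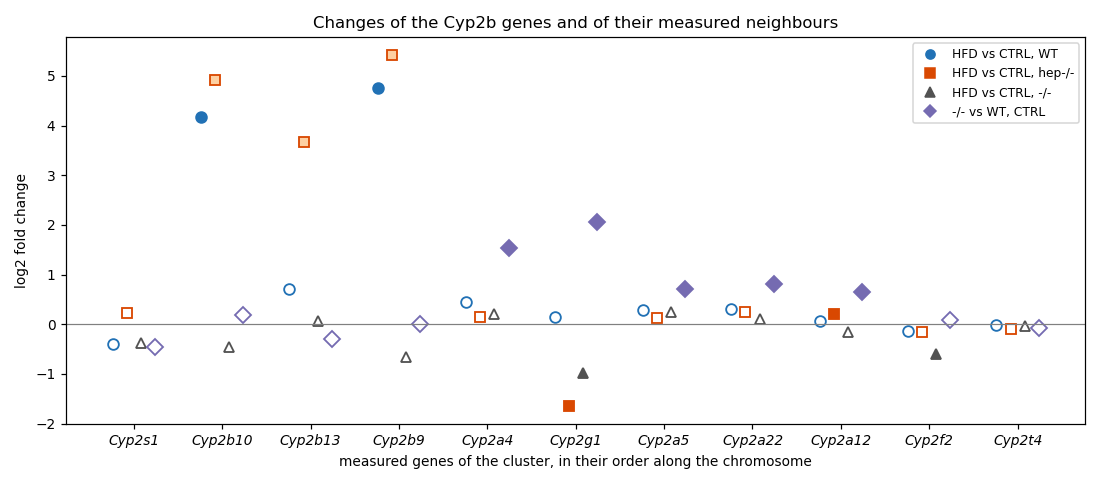
Log2 fold changes of the Cyp2b genes and of 8 measured neighbours, in their order along the chromosome, for the HFD in each genotype and for Pparα-/- against WT mice on the CTRL diet. Filled symbols passed an adjusted p of 0.05, open symbols did not, and pale orange squares are the Cyp2b genes in Pparα hep-/- mice, shown without a test. Cyp2b9 and Cyp2b10 rose by 4.76 and 4.17 with the HFD in WT mice, where 0 of the 8 neighbours passed, against 8.58% of all probes called higher and 10.1% lower.

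Since Cyp2b9 and Cyp2b13 are female-predominant, other sex-biased genes of the liver were counted beside them. Of 24 measured female-biased genes 8 rose and 5 fell in WT, 4 rose and 3 fell in Pparα hep-/-, and 9 rose and 3 fell in Pparα-/- mice on the HFD. Over all probes 8.58% rose and 10.1% fell in WT, 9.42% and 10.7% in Pparα hep-/-, and 12.2% and 12.5% in Pparα-/- mice. Slc22a27, an organic anion carrier, rose in all of the 3 genotypes, by 1.41, 1.66 and 1.98. Of 27 male-biased genes 2 rose and 5 fell in WT, 1 rose and 11 fell in Pparα hep-/- and 0 rose and 17 fell in Pparα-/- mice, with medians of -0.32, -0.42 and -0.67. The change of Moxd1 was -4.93 in Pparα hep-/- and -7.03 in Pparα-/- mice, and that of Hsd3b5, a steroid dehydrogenase, was -3.60 and -3.66. Of 16 genes of growth hormone and STAT5 signalling 1 rose and 4 fell in WT mice, among them the STAT5 targets Socs2 (-1.75, adjusted p = 0.00118) and Cish (-1.69, adjusted p = 0.0286). For Pparα hep-/- mice limma called 0 of the 16 (1 at an unadjusted p under 0.05), and in Pparα-/- mice 1 rose and 3 fell.

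Markers of other liver cells differed between the same groups as the Cyp2b genes in part. Of 12 Kupffer cell and macrophage markers limma called 0 in WT mice on the HFD (0 at an unadjusted p under 0.05), and 5 rose and 0 fell in Pparα hep-/- mice and 9 rose and 1 fell in Pparα-/- mice. Of 8 stellate cell markers 5 rose in Pparα hep-/- and 7 in Pparα-/- mice, and limma called 0 in WT mice (0 at an unadjusted p under 0.05). Over all probes 8.58% rose and 10.1% fell in WT, 9.42% and 10.7% in Pparα hep-/-, and 12.2% and 12.5% in Pparα-/- mice. The summed linear signal of the macrophage markers was 26239 to 81349 in WT CTRL, 43168 to 135306 in Pparα hep-/- CTRL and 33454 to 108952 in Pparα-/- CTRL mice. On the HFD it was 18477 to 100757 in WT HFD, 51685 to 102406 in Pparα hep-/- HFD and 57563 to 119829 in Pparα-/- HFD mice. The part of these cells in the Cyp2b values was not tested, and in whole liver fewer cells of a type and less RNA per cell cannot be told apart. Of the adipocyte markers Adipoq and Plin1 did not pass the filter on dim probes, and 2 of the other 4 rose in WT mice on the HFD. Of these 4, 1 rose in Pparα hep-/- mice, and 1 rose and 1 fell in Pparα-/- mice.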

How the data were processed

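Liver RNA of 48 mice was hybridised to Agilent arrays of 1 colour. The authors deposited, for each array, the output of Agilent Feature Extraction 10.10.1.1, and the spot intensities used here are median intensities without background subtraction or normalization, per the file headers. The log2 values in the series matrix are the authors' own, made by filtering, correction of the wash effect and quantile normalization. They served as an alternative and correlated at 0.999 or more with those computed here over 32815 probes.

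Here, outlier spots were left out, intensities were log2 transformed, spots of a probe were averaged, and a probe was kept if 4 or more of the 8 arrays of any group read it well above background, and the kept probes were quantile normalized. limma 3.58.1 (R 4.3.3, data.table, version 1.17.8) was fitted over all probes with group means, weights for the arrays and a term for the wash batch. p-values were adjusted by Benjamini-Hochberg within each of 12 comparisons, with calls made up to an adjusted p of 0.05. A gene was read from its brightest tested probe. The fit was tested on simulated data. 195 values of outlier spots were missing among the tested probes. Groups, replicates and wash batches come from the labels, which name 8 mice per group.

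The members and gene lists were chosen with earlier results of these data known. Apart from 1 gene of the lists that is not reported here, the genes named are taken from the members, Pparα, the 3 most changed called genes per list, direction and comparison, the measured genes of the Cyp2 cluster, and the 5 genes most like each member. Promoter windows were aligned with scores of 1, -1 and -2 for match, mismatch and gap. Alternatives covered weights, wash term, slide, replicate block, wash batches, signal, background, filter, the authors' values, the other Nr1i3 probe and each mouse left out.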

Additional observations from a re-analysis of the deposited data

Results flagged for a closer look

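2 of 30 groups of 8 mice held a mouse far from the others, where chance gives about 1 in 20. The lowest Nr1i3 signal among Pparα hep-/- CTRL mice, replicate 1, was 10.80 against 11.91 for the next mouse, a gap of 0.6732 of the range of the group. The lowest Nr1i2 signal among WT CTRL mice, replicate 3, was 11.81 against 12.25, a gap of 0.5629 of the range.

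The HFD response differed between genotypes by the interaction term of limma for 5 values, which the report gives with their errors. For Pparα-/- minus WT mice it was -5.414 for Cyp2b9, -4.617 for Cyp2b10, -0.7914 for Nr1i3 and -0.4808 for Nr1i2. For Pparα hep-/- minus WT mice it was -0.7057 for Nr1i3.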

How the results depend on the processing

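The HFD increases of Cyp2b9 and Cyp2b10 in WT mice and their lower values in Pparα-/- than in WT mice on the HFD kept their direction and their call under all alternatives run, including each mouse left out. So did the higher Nr1i3 in both deletion lines than in WT mice on the CTRL diet and in Pparα-/- mice on the HFD. The second Cyp2b10 probe, left out by the filter, was not among the alternatives. Its medians were 4.91 in WT CTRL and 5.03 in WT HFD mice, at the level of background. The other calls of the receptors were less stable, and for the changes below the cause was not tested. Near-zero values that changed sign, none of them called, were those of Cyp2b9 and Cyp2b10 for Pparα-/- against WT mice on the CTRL diet, of Cyp2b13 for the HFD in Pparα-/- mice, of Nr1i3 for the response of Pparα-/- minus Pparα hep-/- mice, and of Nr1i2 in 5 comparisons.

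Without array weights, Cyp2b9 and Cyp2b10 in Pparα-/- against WT CTRL mice were -0.28 and -0.079. Nr1i3 was 0.61 for Pparα hep-/- against WT HFD, 0.57 and 0.34 for Pparα-/- against Pparα hep-/- mice (CTRL, HFD) and -0.48 and -0.71 for the responses of Pparα hep-/- and Pparα-/- minus WT mice. Nr1i2 was -0.25 for Pparα-/- against WT HFD, -0.25 against Pparα hep-/- HFD and -0.34 for the response minus WT, and none of these passed. Without the wash term, Cyp2b9 in Pparα-/- against WT CTRL mice was -0.038, Nr1i3 was 0.42 for Pparα hep-/- against WT HFD and -0.70 for the response minus WT, and Nr1i2 was -0.46 for the response of Pparα-/- minus WT mice. With the slide as a block, Nr1i3 for Pparα hep-/- against WT HFD was 0.38. With the replicate number as a block, Cyp2b9 in Pparα-/- against WT CTRL mice was -0.075, Nr1i3 was 0.33 for Pparα-/- against Pparα hep-/- HFD and -0.62 for the response of Pparα hep-/- minus WT mice, and Nr1i2 for Pparα hep-/- against WT mice was -0.033 (CTRL), 0.0033 (HFD) and 0.036 (response). The numbers do not pair the mice: same-numbered mice of other groups correlated at a median of 0.0223 (-0.449 to 0.694), and 11 of 48 mice correlated best with their own number.

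Within the first wash batch the values that lost their call were -1.12 for Cyp2b13 in Pparα-/- against WT HFD, 0.33 for Nr1i3 in Pparα hep-/- against WT HFD, 0.32 and 0.31 in Pparα-/- against Pparα hep-/- mice (CTRL, HFD) and -1.06 and -1.07 for the responses minus WT. Those of Nr1i2 were -0.30 and -0.17 in Pparα-/- against WT and Pparα hep-/- HFD and -0.70 for the response minus WT, and Nr1i2 in Pparα hep-/- against WT CTRL was -0.091. Within the second, the response of Pparα-/- minus WT mice was -4.66 for Cyp2b9, -4.00 for Cyp2b10, -0.56 for Nr1i3 and -0.34 for Nr1i2, and Cyp2b13 was -0.70 in Pparα-/- against WT HFD. Nr1i3 was 0.80 for the HFD in WT, 0.39 in Pparα hep-/- against WT HFD, 0.53 and 0.49 in Pparα-/- against Pparα hep-/- mice and -0.52 for the response of Pparα hep-/- minus WT mice. There Cyp2b9 and Cyp2b10 in Pparα-/- against WT CTRL were -0.50 and -0.10, and Nr1i2 was 0.091 (Pparα hep-/- against WT HFD), -0.026 and -0.057 (Pparα-/- against WT and Pparα hep-/- CTRL) and 0.060 (response of Pparα hep-/- minus WT).

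With the processed signal, Cyp2b9 and Cyp2b10 in Pparα-/- against WT HFD were -7.68 and -5.53 and their responses minus WT -7.99 and -6.29, Cyp2b13 was 6.07 for the HFD in Pparα hep-/- and -0.022 in Pparα-/- mice, and Nr1i3 was 0.30 for Pparα hep-/- against WT HFD and 0.41 for Pparα-/- against Pparα hep-/- CTRL. After normexp correction Cyp2b13 in Pparα hep-/- mice was 2.90. Without a filter, Cyp2b9 in Pparα-/- against WT CTRL was -0.061, Nr1i3 was 0.47, 0.46, 0.37, -0.68 and -0.77 for the same comparisons as without weights, and Nr1i2 for the response of Pparα-/- minus WT was -0.44. In the authors' values Nr1i3 for the response of Pparα hep-/- minus WT was -0.62. The other Nr1i3 probe gave 0.32 for Pparα hep-/- against WT HFD and 0.21 for Pparα-/- against Pparα hep-/- HFD, and without the arrays of low weight, chosen after seeing the data as was the exact test, the first was 0.31. Without the 2 farthest mice the correlations of Nr1i3 with Cyp2b9 and Cyp2b10 were -0.194 and -0.214.

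With each mouse left out, values whose call or sign changed ranged as follows. Cyp2b9 and Cyp2b10 in Pparα-/- against WT CTRL ranged from -0.14 to 0.12 and from -0.028 to 0.34, and Cyp2b13 in Pparα-/- against WT HFD from -1.08 to -0.71. Nr1i3 ranged from 0.28 to 0.43 for the HFD in Pparα hep-/-, 0.33 to 0.50 for Pparα hep-/- against WT HFD, 0.37 to 0.53 and 0.30 to 0.41 for Pparα-/- against Pparα hep-/- mice (CTRL, HFD), -0.83 to -0.60 for the response of Pparα hep-/- minus WT and -0.18 to 0.012 for Pparα-/- minus Pparα hep-/-. Nr1i2 ranged from -0.30 to -0.16 for the HFD in Pparα-/-, -0.050 to 0.10 and -0.11 to 0.040 for Pparα hep-/- against WT mice (CTRL, HFD), -0.37 to -0.21 for Pparα-/- against Pparα hep-/- HFD, and -0.15 to 0.041, -0.54 to -0.40 and -0.52 to -0.33 for the responses of Pparα hep-/- minus WT, Pparα-/- minus WT and Pparα-/- minus Pparα hep-/- mice.

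Counts of called probes moved with several settings. Within the second wash batch 618 were called for the HFD in WT mice (6233 over both batches), 1657 in Pparα hep-/- (6705) and 3757 in Pparα-/- mice (8249), and within the first 3254, 2033 and 2968. Without weights they were 1270 in Pparα hep-/- and 4034 in Pparα-/- mice, without the wash term 4215 and without a filter 3521 in Pparα hep-/- mice, and without Pparα hep-/- HFD replicate 6 4202. Over all alternatives the differences in response ran from 164 to 4510 (Pparα hep-/- minus WT, 3463), 803 to 5512 (Pparα-/- minus WT, 4773) and 23 to 1398 (Pparα-/- minus Pparα hep-/-, 1135). The counts between genotypes had their lowest values within a wash batch, at 3096 (8260) and 1869 (8884) for Pparα hep-/- against WT mice on the CTRL diet and the HFD, 6264 (11399) and 7808 (15238) for Pparα-/- against WT, and 2665 (8380) and 4960 (10185) for Pparα-/- against Pparα hep-/- mice. Without weights the CAR and PXR targets called higher numbered 3 (11), 1 (12) and 4 (13) in the WT, hepatocyte-deleted and whole-body-deleted mice. Without WT HFD replicate 7, 7 targets were higher in WT mice. Cyp2b values near background limit what the arrays can show of a decrease.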
